A study of Bos taurus with 32 samples.

Results

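Macrophages and the receptors with which cells sense bacterial endotoxin were followed here in bovine endometrium through 10 genes, CD14, CD53, CD68, CD163, TLR2, TLR4, LBP, CSF1R, CSF1 and TYROBP. The genes were matched to the array by symbol, and 8 of the 10 had a probe, giving 9 of the 15208 probes that are not controls. CD163, a scavenger receptor of macrophages, and CSF1R, the receptor for macrophage colony stimulating factor, had no probe under the rule and were not analysed here. CD14 had 2 probes. Probe ABR361 carries the CD14 name in the array files, whereas ABR9806 is listed there only as a transcribed locus and was assigned to CD14 by the rule that chose the genes.

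The arrays held RNA of CAR (the caruncular, aglandular endometrium) and ICAR (the intercaruncular, gland-bearing endometrium) from the uterine horn on the side of the corpus luteum (ipsilateral) and from the opposite horn (contralateral). The animals were non-lactating Japanese Black cows at Day 15 of an estrous cycle. Repeat breeder (RB) cows had failed to conceive after repeated inseminations despite a uterus and ovaries judged healthy by palpation. Non-RB cows were normally fertile, and by the study's methods they had conceived, were made to abort with the prostaglandin analogue cloprostenol and then cycled normally before collection, so that this treatment and fertility cannot be told apart. There were 4 cows in each group and 1 array for each cow, compartment and horn, 32 arrays in all. Arrays of 1 group with the same replicate number were taken as 1 cow, which the labels do not state, and where they are not separate cows the p-values measure only the spread between these samples. In whole tissue, fewer cells of a type and less RNA per cell cannot be told apart.

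Endotoxin, the lipopolysaccharide of Gram-negative bacteria, is bound by the serum protein LBP and handed to CD14, a receptor on monocytes and macrophages that passes it to the signalling receptor TLR4 and its partner LY96. TLR2 is the related receptor for bacterial lipoproteins, and it too can use CD14. CSF1 is the growth factor on which macrophages depend, CD68 is a lysosomal protein abundant in them, CD53 is a tetraspanin found on most leukocytes, and TYROBP is the adaptor (also called DAP12) through which several myeloid receptors signal.

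The CD14 probes are shown because their values parted on 2 arrays. Printed are the 30 bases at the 3′ end of each 60-base probe, with the polyadenylation motif AATAAA in capitals where the probe holds it.
CD14 ABR361: tgccctggctccgggagaccctcgccagga
CD14 ABR9806: catggctgtatgtcagtacccacAATAAAc
The motif was found in ABR9806 alone of the 9 member probes when searched as printed, and 9.49% of all 15208 probes hold it in their last 30 bases (11.2% when its reverse complement is counted too). The 2 CD14 probes differ in base composition, with a GC content of 60.0% in ABR361 and 38.3% in ABR9806, and share no run longer than 5 bases on the same strand or 6 on opposite strands.

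Across the series the 75th percentile of the intensity ranged from 1165 to 4857 between arrays and 74.3% to 85.8% of probes were well above background. The arrays lay on 8 slides scanned in 4 calendar months. The 2 arrays on slide 1, non-RB replicate 2 of CAR contralateral and non-RB replicate 1 of ICAR contralateral, stood apart. On them 100 copies of a single GAPDH probe had an SD of 1.32 and 0.87 on the log2 scale, against 0.12 to 0.54 on the other 30 arrays. For member results that moved without them, the values with and without these arrays are given. All 5 epithelial and all 6 stromal marker probes were well above background on all 32 arrays, and FOXA2, a transcription factor of uterine glands, was lower in CAR than in ICAR by 1.69 ± 0.38 (log2, SE, n = 16 arrays each from 8 cows, limma adjusted p = 0.0361). The cow was not a term in that model, which treats the 32 arrays as separate samples. The call was lost without the slide 1 arrays, when 0 of the probes were called. Leaving out any single replicate other than non-RB replicate 2 or RB replicate 3 also left 0 probes called.

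Of the 9 member probes 7 were readily measured, namely both CD14 probes and those for CD53, CD68, TLR2, TLR4 and TYROBP. Each was well above background on all 32 arrays except CD14 ABR361, on 31. LBP and CSF1 were not well above background on 30 of 32 arrays each and were not tested. The highest LBP values, as log2 intensity above or below the array's 75th percentile, the scale used throughout, were -5.04 in CAR contralateral and -6.87 in ICAR ipsilateral, both of non-RB replicate 2, and the highest for CSF1 was -7.24. The other LBP values lay between -10.37 and -8.43.

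**Figure D1:**
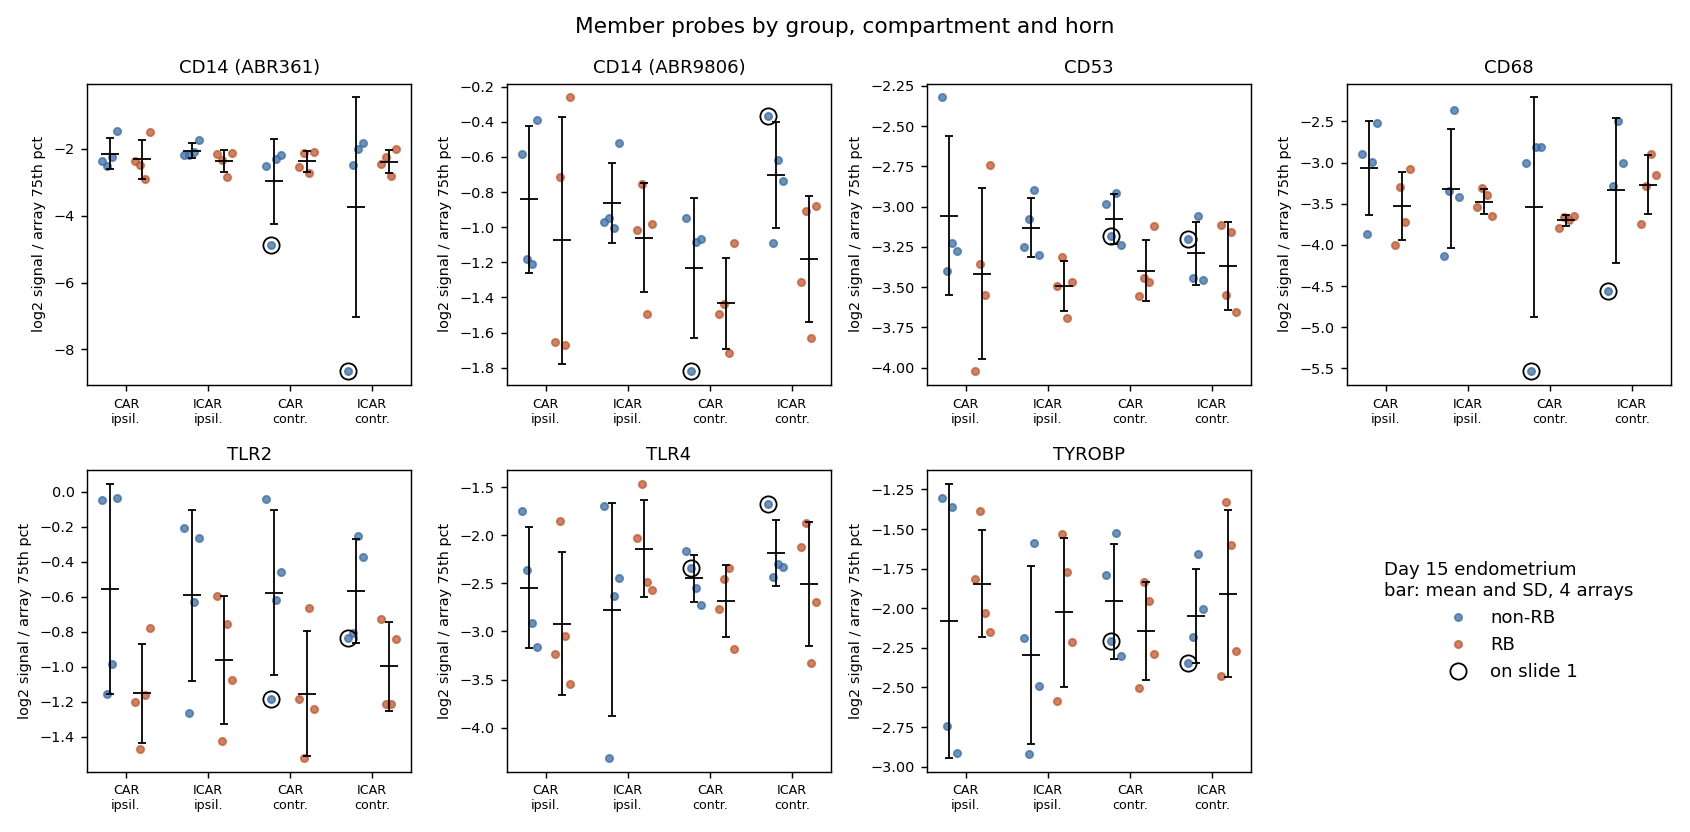
Log2 signal relative to the array's 75th percentile (vertical axes, whose scales differ between panels) for the 7 measured probes on each array of the 8 combinations of group, compartment and horn. Points are arrays, bars are the mean and SD of 4, and open circles mark the 2 arrays of slide 1, on which CD14 ABR361 read -4.87 and -8.66 while every other array lay between -2.89 and -1.47.

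TLR2, the lipoprotein receptor, had a lower mean in RB than in non-RB cows in all 4 endometrial compartments, by 0.37 to 0.60, but 0 of these differences passed the test. In CAR ipsilateral the RB arrays read -1.20, -1.47, -1.16 and -0.78 and the non-RB arrays -0.05, -1.16, -0.98 and -0.03. In ICAR ipsilateral the RB arrays read -0.59, -1.42, -0.75 and -1.07 and the non-RB arrays -0.20, -1.26, -0.63 and -0.26. The groups overlapped in both, and non-RB replicates 2 and 3 lay within the RB range in each. In CAR contralateral the RB arrays read -1.18, -1.52, -0.66 and -1.24 and the non-RB arrays -0.04, -1.18, -0.62 and -0.46. In ICAR contralateral the RB arrays read -0.72, -1.21, -1.21 and -0.84 and the non-RB arrays -0.84, -0.81, -0.25 and -0.37. RB replicate 2 was the lowest of its group in all 4 compartments, and shared the lowest place at -1.21 in the last.

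When the 4 arrays of each cow were averaged, TLR2 read -0.92, -1.41, -0.95 and -0.98 in RB cows and -0.28, -1.10, -0.62 and -0.28 in non-RB cows. Only non-RB replicate 2 lay among the RB cows. The means were -1.06 ± 0.23 and -0.57 ± 0.39 (SD, n = 4 each). The difference was -0.49 ± 0.22 (SE), a 1.41-fold lower signal in RB, with a 95% interval from -0.997 to 0.01 and an unadjusted p of 0.0542 by limma (two-sided exact permutation p = 0.114). The difference did not pass after adjustment over all 12919 probes tested. Of those probes, 0 passed (0%), 286 had an unadjusted p under 0.05 (2.21%), and 0 of the 7 member probes did either. The whole-cow value was -0.55 without the arrays of slide 1 (unadjusted p = 0.0428) and -0.67 without non-RB replicate 2 (unadjusted p = 0.00840), and the adjusted p by limma was at least 0.947 in both. With slide as a block, where 4 of the 8 arrays lie on slides that hold both groups, the ICAR ipsilateral difference turned to 0.11. Within 1 scan month, in the 9 combinations of compartment and month that held both groups, TLR2 was lower in RB in 7, with differences from -1.14 to 0.67 and a median of -0.67.

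**Figure D2:**
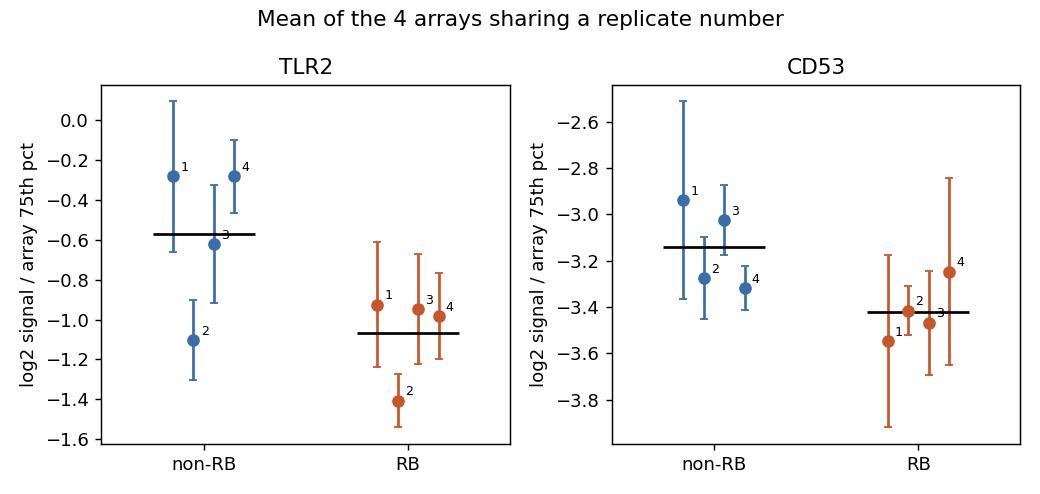
Mean of the 4 arrays of each cow for TLR2 and CD53 (vertical axes, log2 signal relative to the array's 75th percentile), with the SD of those arrays as bars, the group means as lines and replicate numbers beside the points. For TLR2, non-RB replicate 2 at -1.10 is the only non-RB cow among the RB cows, which lie between -1.41 and -0.92.

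CD53, the leukocyte tetraspanin, was separated between the groups in 1 compartment. In ICAR ipsilateral the RB arrays read -3.49, -3.31, -3.69 and -3.47 and the non-RB arrays -3.25, -3.08, -2.90 and -3.30. All RB values lay below all non-RB values, though RB replicate 2 and non-RB replicate 4 nearly met. The difference was -0.36 ± 0.20 (SE, limma unadjusted p = 0.0977, adjusted p = 0.863), and the two-sided exact permutation p was 0.0286, the smallest that 4 against 4 can give. Among the 12889 probes tested there, groups did not overlap in 2.23% (1.32% with RB lower), so that 1 of 7 member probes is read against that share. CD53 is in the study's own list of changed genes and is thus not an independent choice.

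In the other compartments CD53 overlapped between the groups. The RB arrays read -4.02, -3.35, -3.55 and -2.74 in CAR ipsilateral, where the non-RB arrays read -2.32, -3.40, -3.23 and -3.28. In CAR contralateral they read -3.56, -3.44, -3.47 and -3.12 against -2.98, -3.18, -2.91 and -3.24, so that RB replicate 4 alone lay inside the non-RB range. In ICAR contralateral they read -3.12, -3.55, -3.16 and -3.65 against -3.20, -3.44, -3.06 and -3.46, with no separation. Groups did not overlap in 1.97%, 1.37% and 1.48% of all probes there, and in 1.19% over whole cows, against 0 of the 7 member probes in each. The differences there were -0.36, -0.32 and -0.08 (limma unadjusted p = 0.326, 0.153 and 0.730). Over whole cows CD53 was -3.42 ± 0.13 in RB and -3.14 ± 0.19 in non-RB (SD, n = 4 each), a difference of -0.28 with a 95% interval from -0.64 to 0.08 (limma unadjusted p = 0.115). Within scan months it was lower in RB in 7 of 9 combinations, by a median of 0.37 and with a range from -0.78 to 0.53.

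The 2 CD14 probes gave different pictures of the endotoxin co-receptor. ABR9806 had a lower mean in RB in all 4 compartments, by 0.23, 0.20, 0.20 and 0.48 in CAR ipsilateral, ICAR ipsilateral, CAR contralateral and ICAR contralateral. ABR361 was lower in RB in the ipsilateral horn, by 0.16 and 0.32, and had a higher mean in RB in the contralateral horn, by 0.59 in CAR and 1.36 in ICAR. None of the 8 differences passed (limma unadjusted p from 0.103 to 0.658). Without non-RB replicate 2, an array of slide 1, the CAR contralateral difference of ABR9806 was -0.40, and without non-RB replicate 1 its ICAR contralateral difference was -0.37.

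The contralateral values of ABR361 turned on 1 array each. In ICAR contralateral the RB arrays read -2.46, -2.25, -2.81 and -2.02 and the non-RB arrays -8.66, -2.49, -1.997 and -1.84. The -8.66 is the value of a spot not well above background, at an intensity of 2.89, which the LBP and CSF1 spots of that array share to the digit. Without non-RB replicate 1 the difference was -0.28 in place of 1.36. In CAR contralateral the RB arrays read -2.55, -2.12, -2.73 and -2.09 and the non-RB arrays -2.53, -4.87, -2.30 and -2.17, and without non-RB replicate 2 the difference was -0.04 in place of 0.59. Both arrays were on slide 1. ABR9806 read -0.37 and -1.82 on the same 2 arrays, the highest and the lowest of their groups, and its ICAR contralateral arrays otherwise read -1.09, -0.62 and -0.74 in non-RB and -1.31, -0.91, -1.63 and -0.88 in RB. The median shift of the neighbouring probes at ABR361 was -0.58 on the CAR array of slide 1 and 0.21 on its ICAR array, and its part in these values was not tested beyond that.

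**Figure D3:**
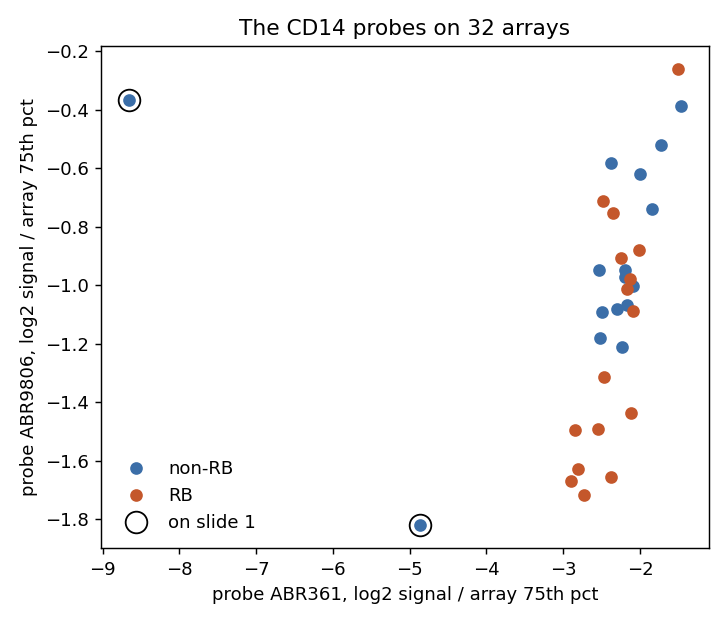
Log2 signal relative to the array's 75th percentile for CD14 probe ABR361 (horizontal) against ABR9806 (vertical) on 32 arrays, blue for non-RB and orange for RB. The 2 circled arrays of slide 1 lie apart at -8.66 and -4.87, and Pearson's r across arrays is 0.04 with them and 0.78 on the other 30.

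As a description of these 32 arrays, the CD14 probes had a Pearson r of 0.04, and of 0.78 over the 30 arrays without slide 1. Over whole cows ABR9806 differed by -0.28 (95% interval -0.79 to 0.24) and ABR361 by 0.37 (-0.60 to 1.33), and the latter became -0.17 without the arrays of slide 1. ABR9806 is the probe that the study listed as CD14, so it is no independent choice.

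CD68, the lysosomal marker, was low on the same 2 arrays. In CAR contralateral the RB arrays lay close together, at -3.80, -3.67, -3.69 and -3.64, and the non-RB arrays read -3.00, -5.54, -2.81 and -2.82. Of the 4 non-RB arrays, 3 were above all RB arrays and 1 was far below them. The difference was -0.16 (limma unadjusted p = 0.786), and without non-RB replicate 2 it was -0.83 with an unadjusted p of 0.00118 and an adjusted p of 0.972. With slide or with scan month as a block it was -0.82 (unadjusted p = 0.0147 and 0.00389). Slide 1 is a block of its own there, and 4 and 5 of the 8 arrays lie in blocks that hold both groups. In ICAR contralateral the non-RB arrays read -4.56, -3.29, -2.50 and -3.00 and the RB arrays -3.74, -3.29, -2.89 and -3.15, a difference of 0.07. In the ipsilateral horn CD68 was lower in RB by 0.46 in CAR and 0.16 in ICAR, with overlapping groups. The CD68 and ABR361 spots lie near each other in the same row of the array, and the median shift of the neighbouring probes at CD68 was -0.56 and 0.28 on the 2 slide 1 arrays.

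TLR4, the endotoxin receptor itself, showed no common direction. It was lower in RB by 0.37 in CAR ipsilateral, 0.24 in CAR contralateral and 0.32 in ICAR contralateral, and had a mean higher by 0.63 in ICAR ipsilateral. There the RB arrays read -2.03, -1.47, -2.49 and -2.57 and the non-RB arrays -1.70, -4.31, -2.63 and -2.45, with non-RB replicate 2 far below the rest, and without that array the difference was 0.12. On that array the median shift of the probes neighbouring TLR4 was -0.87, and the copies of the GAPDH probe had an SD of 0.54. The part of either in the value was not tested. In CAR contralateral the difference was -0.61 with slide and -0.56 with scan month as a block (limma unadjusted p = 0.0414 and 0.0237). The 4 unadjusted p-values ran from 0.250 to 0.405 by limma. Over whole cows the difference was -0.07 with a 95% interval from -0.73 to 0.59.

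TYROBP, the myeloid adaptor, had a higher mean in RB in 3 of 4 compartments, by 0.24, 0.27 and 0.14, and a lower mean by 0.19 in CAR contralateral. Its arrays ranged from -2.59 to -1.33 in RB and from -2.92 to -1.31 in non-RB, so that each group spanned nearly the other's range. Over whole cows the difference was 0.11 with a 95% interval from -0.50 to 0.73. With slide as a block TYROBP differed by -0.15 in ICAR ipsilateral, -0.43 in ICAR contralateral and -0.74 in CAR contralateral (unadjusted p = 0.0226), where scan month as a block gave -0.52.

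**Figure D4:**
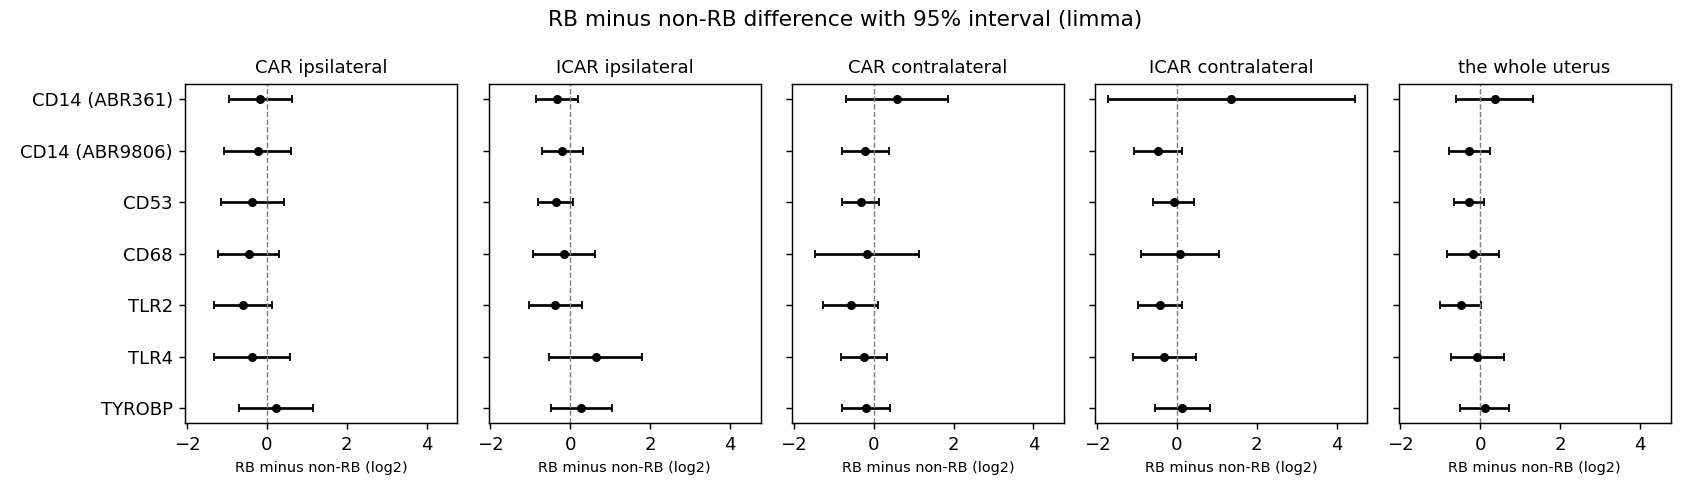
RB minus non-RB difference in log2 signal (horizontal axes) for the 7 tested probes in each compartment and over whole cows, with limma's 95% interval. Every interval crosses 0, and that of TLR2 over whole cows, from -0.997 to 0.01, comes nearest to leaving it out.

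Counted over the 7 tested probes, 0 passed the adjusted test in CAR ipsilateral, ICAR ipsilateral, CAR contralateral and ICAR contralateral, as did 0% of all probes in each. At an unadjusted p under 0.05 the members again numbered 0, where 3.41%, 3.69%, 1.74% and 1.60% of all probes passed. The methods' t-test gave CD53 an unadjusted p of 0.0238 in ICAR ipsilateral and 0.0407 in CAR contralateral, neither of which passed after adjustment. In CAR contralateral CD68, TLR4 and TYROBP came under that threshold by limma with slide as a block, as did 7.10% of all probes. With scan month as a block CD68, TLR4 and TLR2 did, the last at -0.89 (limma unadjusted p = 0.0305), as did 7.54% of all probes. All 6 values had RB lower, their adjusted p was 0.651 or 0.685 by limma, and the median over all probes was 0.11 and 0.12 under these blocks. A lower mean in RB was found for 6, 5, 6 and 4 of the 7 probes in these compartments, and for 47.5%, 53.1%, 49.8% and 47.3% of all probes. The medians of the 7 differences were -0.36, -0.20, -0.20 and -0.08, beside medians over all probes of 0.02, -0.03, 0.00 and 0.02. Of the 7 probes 3, CD14 ABR9806, CD53 and TLR2, were lower in RB in each of the 4 compartments, as were 14.1% of the 12702 probes tested in all 4. The study listed CD14 ABR9806 and CD53 as lower in RB from these same arrays. Their direction is no independent evidence, and the counts of the 7 probes above include them. The 4 compartments come from the same cows and are not separate evidence.

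Between compartments and horns the members differed little relative to their spread. For CAR against ICAR the 7 differences ran from -0.25 for TLR4 to 0.19 for CD14 ABR361, and 0 of the 7 were called, against 1.35% of 12919 probes. These fits take the 32 arrays as separate samples, and with the cow as a replicate block 1086 probes in place of 174 were called between CAR and ICAR, with 0 of the 7 members among them. TLR4 was lower in CAR in 13 of 16 comparisons of CAR with ICAR of the same cow and horn, with a median difference of -0.44. The fitted difference was -0.25, with a 95% interval from -0.68 to 0.19. With single replicates left out it ranged from -0.43 to -0.15, and the smallest unadjusted p by limma was 0.0339. With all 32 arrays 16.2% of all probes and 0 of the 7 members had an unadjusted p under 0.05 by limma. CD14 ABR9806 was lower in CAR in 12 of 16, with a difference of -0.19 (-0.48 to 0.09). For the ipsilateral against the contralateral horn the differences ran from -0.14 for TLR4 to 0.65 for CD14 ABR361, and 0 of 7 members and 0% of all probes were called. The difference for ABR361 was 0.27 without the arrays of non-RB replicate 1 and 0.076 without the arrays of slide 1. TLR2 and CD53 each differed by 0.01 between horns, with 95% intervals from -0.27 to 0.29 and from -0.21 to 0.23.

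The RB effect itself was compared between CAR and ICAR and between horns. None of the 7 probes was called in either, as with 0% of all 12919 probes, and none had an unadjusted p under 0.05, where 0.882% and 5.98% of all probes did. The cows of the groups did not overlap in 0.704% and 3.95% of all probes and in 0 of the 7. The nearest was CD14 ABR361 between horns, at -1.22 with an unadjusted p of 0.0725 (two-sided exact permutation p = 0.114), a contrast that contains both slide 1 arrays. It was -0.54 without non-RB replicate 1, -1.64 without non-RB replicate 3 and -0.16 without the slide 1 arrays (limma unadjusted p = 0.118, 0.0191 and 0.381, limma adjusted p = 0.620 for the second). A block that pairs RB and non-RB cows of the same number, a pairing the labels do not state, gave a limma unadjusted p of 0.0410. The adjusted p was 0.734.

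The order of the 8 groups of arrays reflects these patterns. For TLR2 the 4 non-RB means, from -0.59 to -0.55, all lay above the 4 RB means, from -1.15 to -0.96, while the SD within a group of 4 was between 0.25 and 0.60. The 4 non-RB means differ by far less than that SD. CD53 had the same order, with non-RB means from -3.29 to -3.06 and RB means from -3.49 to -3.37. The 4 means of a group come from the same 4 cows, and the share of all probes with such an order was not counted. For CD53 the group means ran from -3.49 to -3.06 with a median SD of 0.19, for TYROBP from -2.30 to -1.84 with 0.42, and for TLR4 from -2.92 to -2.14 with 0.57, so that neighbouring means in each order lie within the spread. The spread between cows was set beside that within a cow. For TLR2 the SD between cow means within a group was 0.32 and the median SD within a cow 0.25, and for CD53 they were 0.16 and 0.20. For TYROBP they were 0.42 and 0.29, and for CD14 ABR361, with the slide 1 arrays included, 0.72 and 0.23.

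The other genes of the pathway were taken from fixed lists. Of 26 endotoxin pathway genes 18 had a probe, and of the 19 probes 16 or 17 were tested in each comparison of RB with non-RB. None was called and none had an unadjusted p under 0.05, and their median difference was 0.00, -0.14, -0.07 and -0.21 in CAR ipsilateral, ICAR ipsilateral, CAR contralateral and ICAR contralateral, beside the medians over all probes given above. In the RB effect between horns 1 of 16 pathway probes was higher and 1 lower at an unadjusted p under 0.05 by limma. Of all probes 5.98% passed that threshold. The cows of the groups did not overlap for 2 of the 16, beside 3.95% of all probes, and none was called. In the RB effect between CAR and ICAR the counts were 0 and 1 of 16, beside 0.882% and 0.704% of all probes. LY96, the partner of TLR4, had 1 probe well above background on 32 arrays and another on 1. TNF was well above background on 2 arrays and TIRAP, an adaptor below TLR2 and TLR4, on 7. CHUK, a kinase that activates NF-kappaB, was the only pathway probe whose groups did not overlap in a compartment. It was 1 of 17 pathway probes tested in ICAR ipsilateral, where groups did not overlap in 2.23% of all probes. In ICAR ipsilateral it read 1.26 to 1.45 in RB and 0.94 to 1.12 in non-RB (limma unadjusted p = 0.131), and it was named after its values were seen.

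Among 7 other Toll-like receptor probes, 6 were tested and none was called or had an unadjusted p under 0.05 between RB and non-RB. A lower mean in RB was found for 3 of 6 in CAR ipsilateral, 4 in ICAR ipsilateral, 6 in CAR contralateral and 5 in ICAR contralateral, with medians of -0.01, -0.14, -0.24 and -0.16, beside the shares of all probes given above. TLR5, the flagellin receptor, was lower in CAR than in ICAR by 0.74 (limma unadjusted p = 0.00491, adjusted p = 0.1001), and IL1B, an inflammatory cytokine, was higher in CAR by 1.04 (unadjusted p = 0.00151, adjusted p = 0.0626). Neither passed, and both were named after their values were seen. In that comparison 16.2% of all probes had an unadjusted p under 0.05 by limma. Of 15 colony stimulating factor and myeloid receptor genes 6 had a probe and 3 or 4 were tested, none of them called.

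Other leukocyte markers are given beside the members. Of 11 macrophage marker probes, such as AIF1, C1QB, CTSS and MSR1, 7 were well above background on all arrays and ITGAM, a macrophage and neutrophil integrin, on 0. The mean level of the 9 that could be followed ranged from -3.72 to -2.24 in non-RB and from -3.42 to -2.54 in RB arrays, and their median difference over whole cows was -0.08. In CAR ipsilateral, ICAR ipsilateral, CAR contralateral and ICAR contralateral the median was -0.03, 0.02, -0.25 and -0.05. A lower mean in RB was found for 6 of 9, 4 of 9, 6 of 10 and 7 of 10 probes tested there. None was called. Among them the Fc receptor FCGR1A had an unadjusted p of 0.0463 in ICAR ipsilateral, where its mean was higher in RB by 0.55 and the groups overlapped, and it was named after its values were seen. Over 5 probes of markers of all leukocytes the median difference was 0.20, -0.21, -0.40 and -0.02 in CAR ipsilateral, ICAR ipsilateral, CAR contralateral and ICAR contralateral and -0.03 over whole cows, and their mean level ranged from -4.08 to -2.62 in non-RB and from -4.03 to -3.14 in RB. Of these 5, 3 had a lower mean in RB in ICAR ipsilateral and 1 did not overlap between the groups, where 2.23% of all probes did not. That was ITGB2, the common leukocyte integrin chain, at -1.36 to -1.03 in RB and -0.95 to -0.56 in non-RB (difference -0.41, limma unadjusted p = 0.0609, named after its values were seen). Among 9 T and NK cell and 3 B cell marker probes tested none was called. CD3G and BLNK in ICAR ipsilateral, both with a higher mean in RB, had an unadjusted p under 0.05 with overlapping groups. So did KLRD1 in CAR contralateral, with a lower mean. Of all probes 3.69% and 1.74% passed that threshold in these compartments. In ICAR ipsilateral 5 of the 9 T and NK cell probes and 1 of the 3 B cell probes had a lower mean in RB. Of 5 epithelial marker probes 5, 2, 3 and 5 had a lower mean in RB in the 4 compartments, in the order above. Their median differences were -0.39, 0.12, -0.14 and -0.61. Of the neutrophil marker probes 3 of 3, 2 of 4, 2 of 4 and 1 of 4 were lower, with medians of -0.62, 0.09, 0.15 and 0.20. None of either list was called. The part of leukocyte number in the CD53 values, and of other cell types in any member value, was not tested.

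The genes most like each member over the 32 arrays, among 4390 probes with a single symbol, are given as a description, since arrays of 1 cow and 1 slide are not independent. CD53 was nearest to ITGB2 (Pearson r = 0.73), CORO1B (0.69) and RPL12 (0.68). TYROBP was nearest to VSIG4 (0.80), a complement receptor of resident macrophages, then PIM1 (0.76) and MYC (0.75). CD68 was nearest to RMDN1 (0.85), IRF5 (0.82), a transcription factor of macrophages, and RPL8 (0.79). CD14 ABR9806 had TLR6, the partner of TLR2, among its 3 nearest (0.73), after LOC404103 and ZNF182 (0.74 each). TLR2 was nearest to IFI30 (0.87), GABARAPL2 (0.87) and CFTR (0.85), and TLR4 to NMT1 (0.89), RAB19 (0.87) and EHF (0.86). CFTR is a chloride channel and EHF a transcription factor, both of epithelia. Each is the last of the 3 genes named for its member, and the nearer ones were not assigned to a cell type here. The cell type that carries TLR2 or TLR4 was not tested. Over the 30 arrays without slide 1 these values lay between 0.68 and 0.90, except that of RPL8, which was 0.51. For CD14 ABR361 the nearest genes were FKBP11 (0.94), PRNP (0.92) and NIPA2 (0.92) on 32 arrays, and these values were -0.07, 0.30 and 0.41 without slide 1. Among the 7 members themselves the 21 correlations ran from -0.30 to 0.60, with a median of 0.18, and from -0.30 to 0.78 with a median of 0.31 without slide 1.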

How the data were processed

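Day 15 endometrium of 4 RB and 4 non-RB cows was measured on 32 single-colour arrays, grouped by their labels. The authors extracted the scans with Agilent Feature Extraction 9.5, and the intensity they deposited had its background subtracted and its spatial trend removed, without normalization between arrays. A deposited table of log2 values, equal to the log2 of that intensity relative to the array's 75th percentile up to a constant of at most 0.0140, served as an alternative. GeneSpring is named in the study's methods.

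The log2 intensity minus that of the array's 75th percentile was used. Values with an outlier flag were treated as missing, saturated ones stayed in, and controls were dropped. A probe was tested if it was well above background on 2 or more of 8, or 8 or more of 32, arrays, with limma 3.58.1 in R 4.3.3, with Benjamini-Hochberg adjustment over all probes tested and a threshold of 0.05. Whole-uterus values are means of the 4 arrays of a cow. Single members were also tested by exact permutation over 70 splits. Precision is limited by how few arrays there are. On simulated, independent arrays the fits recovered 7% of changes of 1 on the log2 scale for CAR ipsilateral. They recovered 81% for the whole uterus and 88% for CAR against ICAR, and 57%, 97% and 98% of changes of 2. Simulated arrays of 1 cow were not correlated, whereas the fitted correlation for the whole uterus was 0.30 in the real arrays. The whole-uterus recovery is thus higher than these data would give. Gene symbols came from the files and, for 2514 probes, from a RefSeq table matched by accession. No genome was used.

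The members and lists were chosen with earlier results of these data known. The rule names all member probes, list genes called between compartments or horns (FOXA2 is given), list genes whose groups did not overlap in a compartment and whose unadjusted p there was under 0.05 (none was), and the 3 nearest genes of each member. CHUK, ITGB2, FCGR1A, CD3G, BLNK, KLRD1, TLR5 and IL1B fall outside it and were named after their values were seen. The alternatives were other normalizations, filters, the deposited table, the methods' t-test, slide, scan month or replicate number as blocks, single replicates left out, the slide 1 arrays left out, and, chosen after the values were seen, the slide 1 arrays left out of the RB effect between compartments and horns and the removal of each array's local shift (the median deviation of probes within 5 rows and columns).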

Additional observations from a re-analysis of the deposited data

Results flagged for a closer look

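Among the member values 7 stood far from the other 3 arrays of their group of 4 by Dixon's test, out of 72 groups tested, and chance marks about 1 in 20. Of these, 5 were on the 2 slide 1 arrays. On non-RB replicate 2 of CAR contralateral, CD14 ABR361 read -4.87 (others -2.53 to -2.17), CD14 ABR9806 -1.82 (others -1.08 to -0.95), CD68 -5.54 (others -3.00 to -2.81) and LBP -5.04 (others -10.32 to -9.88). On non-RB replicate 1 of ICAR contralateral, CD14 ABR361 read -8.66 (others -2.49 to -1.84). The median shift of the neighbouring probes at these spots was -0.58, -0.62, -0.56, 0.59 and 0.21, and the rest of each gap was not tested. The remaining 2 were CD14 ABR9806 at -0.52 on non-RB replicate 4 of ICAR ipsilateral (others -1.002 to -0.95) and CD53 at -2.32 on non-RB replicate 1 of CAR ipsilateral (others -3.40 to -3.23).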

How the results depend on the processing

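No member probe was called in any of the 9 comparisons under any alternative, and the lowest adjusted p was 0.0886, for TLR2 over the whole uterus with 32 arrays taken as independent samples, which they are not. Of 1163 alternative values of the 63 member results, 1087 kept their direction and 76 turned, none of them from a called value. Outside the removal of single replicates, 19 had an unadjusted p under 0.05. The cause was not tested except where the array left out shows it. With slide as a block, TLR2 became 0.11 and TYROBP -0.15 for RB against non-RB in ICAR ipsilateral, CD68 -0.55 and TYROBP -0.43 in ICAR contralateral, TYROBP -0.046 for CAR against ICAR, and CD68 -0.0012 and TLR2 -0.044 between horns. With scan month as a block, CD14 ABR361 became -0.046, CD68 -0.42 and TYROBP -0.36 in ICAR contralateral, and CD68 -0.097 and TLR2 -0.029 between horns. With normexp background correction, CD14 ABR361 became -0.15, CD68 -0.42 and TYROBP -0.024 in ICAR contralateral, CD14 ABR361 -0.042 over the whole uterus and -0.14 for CAR against ICAR, CD53 -0.028 and CD68 -0.025 between horns, CD14 ABR361 0.37 and CD53 0.044 for the RB effect in CAR against ICAR, and CD68 0.034 for the RB effect between horns. Without the slide 1 arrays, CD14 ABR361 became -0.17 over the whole uterus and -0.052 for CAR against ICAR, CD68 -0.14 and TLR2 -0.058 between horns, CD14 ABR361 0.22 and CD14 ABR9806 -0.0053 for the RB effect in CAR against ICAR, and CD68 0.21 for the RB effect between horns. Quantile normalization turned CD53 to -0.0061 and TLR2 to -0.000104 between horns. Removal of the local shift turned CD53 to -0.011, TLR2 to -0.015 and TYROBP to 0.055 between horns, and CD14 ABR9806 to -0.24 for the RB effect in CAR against ICAR.

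With single replicates left out, values that crossed 0 ranged as follows. In CAR ipsilateral CD14 ABR361 ranged from -0.43 to 0.065 and TYROBP from -0.041 to 0.49, and in ICAR ipsilateral CD68 from -0.43 to 0.16. In CAR contralateral CD14 ABR361 ranged from -0.039 to 0.86 and CD68 from -0.83 to 0.084. In ICAR contralateral CD14 ABR361 ranged from -0.28 to 1.996, CD53 from -0.17 to 0.013, CD68 from -0.34 to 0.35 and TYROBP from -0.053 to 0.31. Over the whole uterus CD14 ABR361 ranged from -0.037 to 0.68, CD68 from -0.41 to 0.041, TLR4 from -0.29 to 0.15 and TYROBP from -0.038 to 0.30. For CAR against ICAR CD14 ABR361 ranged from -0.21 to 0.41, CD68 from -0.33 to 0.071 and TYROBP from -0.031 to 0.12, and between horns CD53 from -0.032 to 0.072, TLR2 from -0.035 to 0.063 and TYROBP from -0.10 to 0.036. For the RB effect in CAR against ICAR CD14 ABR361 ranged from -0.87 to 0.58, CD14 ABR9806 from -0.0092 to 0.21, CD53 from -0.32 to 0.050, CD68 from -0.73 to 0.19 and TYROBP from -0.35 to 0.0089, and for that between horns CD14 ABR9806 from -7.8e-05 to 0.24 and TLR2 from -0.10 to 0.12. TLR2 over the whole uterus stayed between -0.67 without non-RB replicate 2 (unadjusted p = 0.00840 by limma) and -0.38 without RB replicate 2.

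Whether the replicate numbers pair RB with non-RB cows cannot be decided from 4 pairs in a compartment. Same-numbered pairs had a correlation of deviations over 0.1 in 3, 3, 2 and 3 of 4, with mean r of 0.23, 0.18, 0.02 and 0.11. Different numbers within a group, in different compartments, passed 0.1 in 15 of 72 RB and 10 of 72 non-RB pairs. Those pairs lie within a group and across compartments, so they are no like baseline for pairs between groups. Different numbers between the groups in 1 compartment were not compared. Within RB cows the same number correlated over 0.1 in 22 of 24 pairs of arrays. With RB and non-RB cows of the same number paired as a block, TLR2 over the whole uterus remained at -0.49 (limma unadjusted p = 0.0225, adjusted p = 0.963). The labels do not state that pairing, and 0 members were called. The count of all probes called for CAR against ICAR was 174. It was 1086 with the cow as a block, 531 with scan month and 250 with slide as blocks. It was 314 without the local shift, 64 with normexp, 0 by the methods' t-test and 0 without slide 1. With single replicates left out it was 717 without non-RB replicate 2, 915 without RB replicate 3 and 0 without any other. LBP and CSF1, mostly not well above background, could not be followed. The range of the 8 group means moved by less than the median SD within a group for all 7 probes under quantile normalization and the deposited table, and with normexp for all but CD14 ABR361, where it was 0.74 in place of 1.69. Of the 21 correlations with the nearest genes, 1 moved by over 0.1 with quantile normalization (CD53 with RPL12, to 0.42) and 7 with normexp, to between 0.42 and 0.64.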
